A study of Mus musculus with 8 samples.

Results

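The genes described here are 8 mediators through which tumour cells are known to settle in bone and to provoke its breakdown: Pthlh, Vcam1, Icam1, Ptgs2, Il11, Jag1, Tnc and Edn1. They were taken from a list of bone metastasis mediators by name, and the list was chosen with earlier results of these data known. Every probe set with such a name as its single gene symbol in the platform annotation was used. This gave 13 probe sets of 7 genes, among 34945 probe sets of 18193 genes. Vcam1 and Jag1 had 3 probe sets each, Ptgs2 and Tnc had 2 each, and Icam1, Il11 and Edn1 had 1 each. Pthlh had no probe set under its name in that annotation and was not analysed here.

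The samples came from Balb/c mice carrying 4T1.2, a mouse mammary carcinoma line whose transplanted tumours seed bone on their own. The 2 groups were primary tumours in the mammary gland (4 arrays) and spine metastases (4 arrays), and each mouse gave 1 array of either kind. The labels call the isolated cells tumour epithelial cells, give no further treatment, and do not give the animals' age or how the cells were separated from their surroundings. Values are RMA signals on the log2 scale, on which a difference of 1 is a 2-fold difference in signal, and a fold is the metastasis mean minus the primary mean. A probe set was called higher or lower where the adjusted p of limma, a linear model fitted to every probe set, was under 0.05 after Benjamini-Hochberg adjustment over all 34945.

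Bone is remodelled by osteoclasts, which dissolve it, and osteoblasts, which build it and control osteoclast formation. Tumour cells in bone can push this balance toward resorption by secreting parathyroid hormone-related protein (Pthlh) and interleukin 11 (Il11) and by making prostaglandins through cyclooxygenase 2 (Ptgs2), while growth factors freed from the matrix act back on the tumour. Adhesion molecules (Vcam1, Icam1), the Notch ligand Jag1, the matrix protein tenascin C (Tnc) and endothelin 1 (Edn1) are known to link tumour cells with osteoclast precursors, osteoblasts or the matrix around them.

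The mediators were lower, not higher, in the spine metastases wherever a call was made. Vcam1 and Ptgs2 fell on every one of their probe sets, by 9.64-fold to 16.6-fold for Vcam1 and by 6.96-fold and 14.7-fold for Ptgs2. Il11 fell 3.31-fold, and 1 of the 3 probe sets of Jag1 fell. Icam1, Tnc and Edn1 did not pass the test. Of the 13 probe sets, 7 were called lower and 0 higher by limma, against 11.9% lower and 8.72% higher over all probe sets. At an unadjusted p under 0.05, 10 were lower and 0 higher, against 18.5% and 16.5% over all probe sets. The same number, 7, had every metastasis array under every primary array and 0 had the opposite, against 14.0% and 14.3% over all probe sets. The median fold of the 13 was -1.73, beside 0.09 over all probe sets. Because the mediators were chosen with earlier results of these data known, these comparisons describe the 13 and are not a test of them. With only the brightest probe set of each gene, 3 of the 7 genes (Vcam1, Ptgs2 and Il11) were called lower, against 12.1% of 18193 genes. Metastasis arrays 1 and 3 were low in the tumour keratin Krt8. Without them 5 of the 13 probe sets were called lower and 0 higher. The 5 were all 3 of Vcam1, 1 of Ptgs2 and that of Il11. Over all probe sets 8.06% were lower and 6.69% higher in that fit.

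**Figure D1:**
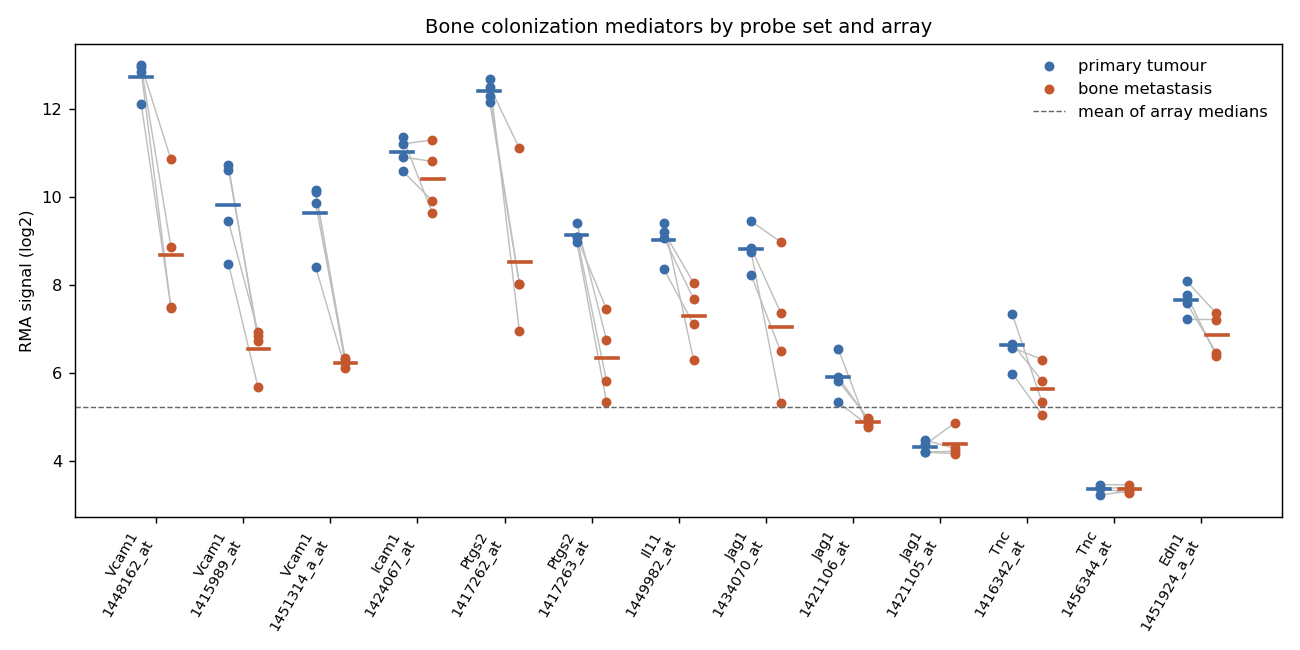
RMA signal (log2, y axis) of the 13 probe sets on each array: points are arrays, blue for primary tumours and orange for bone metastases, grey lines join both tumours of a mouse, short bars are group means of 4 and the dashed line is the mean of the array medians. All 4 metastasis points lie under all 4 primary points for the 3 probe sets of Vcam1, both of Ptgs2, the 1 of Il11 and 1421106_at of Jag1, while those of Icam1 and Edn1 overlap.

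The cells were not tumour epithelium alone, and their makeup and RNA differed between the groups. Krt8, a keratin of simple epithelium that marks the carcinoma cells, read 13.32, 13.07, 13.19 and 13.22 on the primary arrays of mice 1 to 4 and 7.34, 12.39, 9.80 and 12.97 on their metastasis arrays (probe set 1420647_a_at). Metastasis arrays 1 and 3 were thus low in this tumour marker. The mean level of 12 tumour epithelium markers was 6.37, 7.61, 6.88 and 7.88 on metastasis arrays 1 to 4. All lay under the primary arrays (7.89 to 8.64), and of these markers 2 were called lower and 0 higher. The mean level of 10 macrophage and monocyte markers ran from 11.38 to 12.26 on primary arrays and from 8.69 to 10.38 on metastasis arrays, with array 2 the highest of the metastases. That of 10 neutrophil markers ran from 6.81 to 7.29 and from 9.88 to 10.90, and that of 7 B lineage markers from 5.05 to 5.53 and from 8.002 to 11.16. That of 8 nerve and glia markers, of which 7 were called higher, ran from 4.79 to 4.95 and from 7.93 to 9.67, and that of 8 cartilage markers, 4 of them called higher, from 5.50 to 5.60 and from 6.28 to 7.07. For 10 fibroblast markers, 1 called lower and 2 higher, it ran from 7.68 to 9.44 and from 8.52 to 9.29, with overlap. For 5 osteoblast markers, 1 called higher, it ran from 4.82 to 5.08 and from 5.48 to 6.11. The loss of actin control signal between the 3' and 5' probe sets was 1.08 to 1.90 on primary arrays and 4.55 to 6.18 on metastasis arrays (exact permutation p = 0.0286, two-sided, arrays taken as unpaired, the smallest p that 4 against 4 arrays allow, and the same for Gapdh; adjusted p = 0.0286 over both). In such mixed RNA, fewer cells of a type and less RNA per cell cannot be told apart. The part of the cell makeup and of the control drop in the folds of the mediators was not tested except where a measurement is given. The drop of neither control overlapped between the groups, so on these arrays its part and that of the site cannot be told apart.

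**Figure D2:**
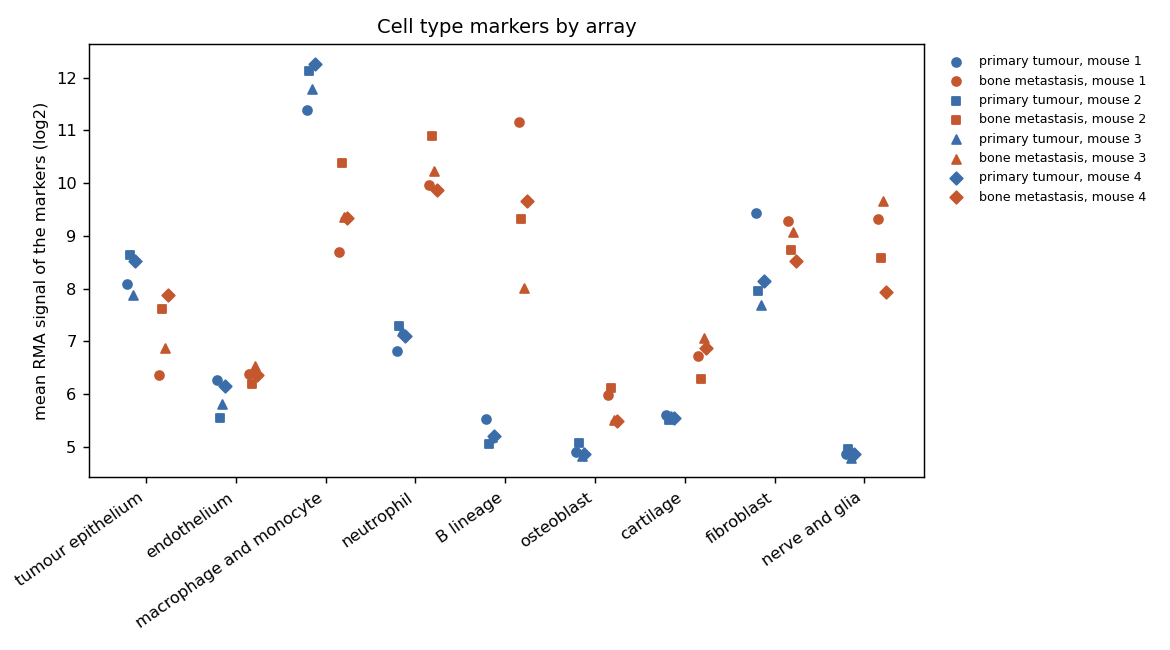
Mean RMA signal (log2, y axis) of the markers of 9 cell types on each array, blue for primary tumours and orange for bone metastases, with a symbol for each mouse. Macrophage and monocyte markers lie at 11.38 to 12.26 on primary arrays and at 8.69 to 10.38 on metastasis arrays, and tumour epithelium markers lie at 7.89 to 8.64 and at 6.37 to 7.88.

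Vcam1 and Icam1 are the adhesion molecules of the list. Vcam1 is a surface immunoglobulin-family protein that binds integrin alpha 4 beta 1 on leukocytes and osteoclast precursors, and it is expressed by activated endothelium, marrow stroma and some macrophages as well as by tumour cells. Its probe set 1448162_at read 12.11, 12.995, 12.95 and 12.86 in the primary tumours of mice 1 to 4 and 7.50, 10.86, 8.87 and 7.49 in their metastases. Every metastasis lay below every primary tumour, and mouse 2 kept the highest level in bone. The fold was -4.05 with an SE of 0.70 (limma adjusted p = 0.00596), a 16.6-fold fall from 12.73 ± 0.42 to 8.68 ± 1.59 (SD, n = 4 each). With the actin drop as a covariate the fold was -0.11 with an SE of 2.29 (limma adjusted p = 0.985), in a fit that called 0 probe sets of 34945 (4552 at an unadjusted p under 0.05).

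The other probe sets of Vcam1 fell as well. On 1451314_a_at the primary tumours read 8.43, 10.13, 10.16 and 9.87 and the metastases 6.12, 6.34, 6.23 and 6.29, so that the metastases were alike to within 0.10 (SD) while the primary tumour of mouse 1 was low. The fold there was -3.40 with an SE of 0.36 (limma adjusted p = 0.00105). On 1415989_at the primary tumours read 8.50, 9.45, 10.73 and 10.63 and the metastases 5.69, 6.95, 6.75 and 6.85, with a fold of -3.27 and an SE of 0.52 (limma adjusted p = 0.00437). The actin covariate gave a fold of -2.44 (SE 1.37) on 1451314_a_at and of -1.79 (SE 1.94) on 1415989_at, neither called. Without metastasis arrays 1 and 3 all 3 probe sets were still called lower, with folds of -3.55, -3.33 and -2.93 for 1448162_at, 1451314_a_at and 1415989_at. In the metastases of mice 2 and 4, Krt8 (12.39 and 12.97) lay within 1 log2 unit of their primary tumours. The mean of the 12 tumour epithelium markers (7.61 and 7.88) lay under that of those primary tumours (8.64 and 8.52). The difference from the primary tumour of the same mouse on 1448162_at of Vcam1 was -2.13 and -5.37. It was -3.79 and -3.58 on 1451314_a_at, where the order of the mice was the reverse, and -2.50 and -3.78 on 1415989_at.

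Icam1, which binds the leukocyte integrins LFA-1 and Mac-1 and is induced by inflammatory cytokines, did not pass the test. Its single probe set read 10.60, 11.21, 10.92 and 11.36 in primary tumours and 9.92, 11.30, 10.82 and 9.65 in metastases. The groups overlapped, the metastases of mice 1 and 4 were the low ones, and mouse 2 had a slightly higher value in bone (by 0.09). The fold was -0.60 with a 95% interval from -1.44 to 0.24 (limma adjusted p = 0.278), which leaves room for a fall of more than 2-fold and for a small rise. It ranged from -0.89 without metastasis replicate 2 to -0.34 without metastasis replicate 4, and was -0.35 after quantile normalization, with no call in any of these.

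Of the integrin chains that bind Icam1 or Vcam1, Itgam, the alpha chain of the Icam1 receptor Mac-1, fell by 2.55 with an SE of 0.74 (limma adjusted p = 0.0410). Its partner chain Itgb2 had a fold of -1.54 (adjusted p = 0.0556, and 0.0384 with the mouse as a block) and Itgal, the alpha chain of LFA-1, folds of -0.48 and -0.36. Itga4, the alpha chain of the Vcam1 receptor, was called higher on 1 of 5 probe sets (1456498_at, 1.19, SE 0.29). On its brightest probe set the fold was 0.24. Itgb1, its beta chain, was called lower on 3 of 6 probe sets, with folds of -3.56, -1.96 and -0.99, and the others read between 3.11 and 3.58 in metastases, below the array medians. The probe set at -0.99 also read under the array medians in metastases (3.73 to 4.79), so its size is not exact. The call at -0.99 was lost with the mouse as a block (adjusted p = 0.0647), after scaling to the 75th percentile (0.0605) and without metastasis arrays 1 and 3 (0.0910). That at -1.96, on the brightest probe set, was lost after quantile normalization (-1.59, adjusted p = 0.0543) and without metastasis arrays 1 and 3 (-1.62, adjusted p = 0.0580). The call of Itgam was lost without metastasis arrays 1 and 3 (-2.12, limma adjusted p = 0.151) and after quantile normalization (adjusted p = 0.0582). The macrophage markers, at 11.38 to 12.26 and 8.69 to 10.38, were lower in metastases as Vcam1 and Itgam were, and metastasis 2 was the highest of the metastases for these markers, for Itgam and Icam1 and on all 3 probe sets of Vcam1. The part of these markers in the fold of Vcam1 was not tested. The actin drop was 4.85, 4.55, 5.72 and 6.18 on metastasis arrays 1 to 4, so metastasis 2 also had the smallest drop. Neither the macrophage markers nor the drop was tested as a source of the order of the metastases.

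Ptgs2 makes prostaglandin H2, the precursor of prostaglandin E2, which acts on osteoblasts to favour osteoclast formation. It is an inducible gene of tumour cells and of activated macrophages and fibroblasts. Probe set 1417262_at read 12.16, 12.52, 12.30 and 12.68 in primary tumours and 8.04, 11.11, 8.03 and 6.96 in metastases. The primary tumours were alike, the metastases were spread over more than 4 log2 units, and mouse 2 again had the highest of them. The fold was -3.88 with an SE of 0.76 (limma adjusted p = 0.00999), a 14.7-fold fall from 12.42 ± 0.23 to 8.54 ± 1.79 (SD, n = 4 each).

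Probe set 1417263_at of Ptgs2 read 8.99, 9.09, 9.41 and 9.10 in primary tumours and 5.35, 7.46, 6.76 and 5.83 in metastases, again without overlap. Its fold was -2.80 with an SE of 0.42 (limma adjusted p = 0.00334). Without metastasis arrays 1 and 3 this call held (-2.50), whereas that of 1417262_at did not (-3.38, limma adjusted p = 0.0745). With the actin drop as a covariate the fold of 1417262_at was 1.86 with an SE of 2.07, and that of 1417263_at was -1.43 with an SE of 1.53.

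Further genes of the prostaglandin pathway were called lower too. Ptges, the inducible synthase that turns prostaglandin H2 into prostaglandin E2, fell on all 3 of its probe sets, with folds of -2.13 (SE 0.39), -1.49 (SE 0.42) and -1.30 (SE 0.38). Ptger2, a receptor for prostaglandin E2 that raises cyclic AMP, fell by 1.76 (SE 0.51, limma adjusted p = 0.0421). Ptger4, the other such receptor, was called lower on 1 of 2 probe sets (-0.76, SE 0.20), a dim one, and had a fold of -0.67 (adjusted p = 0.367) on the brighter. Ptger3 was called higher on 1 of 2 probe sets, also a dim one (3.51 to 3.59 in primary tumours, 3.78 to 4.39 in metastases). Ptger1 and Hpgd, which degrades prostaglandins, had no call on their 2 probe sets each. With the mouse as a block, 1 of the 3 probe sets of Ptges was called (the others had limma adjusted p = 0.0584 and 0.0913; 0.0617 and 0.0582 after quantile normalization; and 0.0883 and 0.181, with folds of -0.82 and -0.75, without metastasis arrays 1 and 3), and the call of Ptger3 was lost (adjusted p = 0.0681). The call of Ptger2 was lost after quantile normalization (adjusted p = 0.0567) and, at -1.60, without metastasis arrays 1 and 3 (adjusted p = 0.126).

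Il11 encodes a cytokine of the interleukin 6 family that stimulates osteoclast formation and that transforming growth factor beta induces in tumour cells. RefSeq lists 2 start sites for it, and the bases before the downstream one (mouse build GRCm38.p6, minus strand) are shown because they hold a match to an AP-1 motif, in capitals. Of the 7 measured mediators, 6 were found in the RefSeq promoter table, with 8 start sites in all. Vcam1 had no entry there, so its promoter was not searched. The 250 bases before each start site were searched on both strands for AP-1 (TGANTCA), the cyclic AMP response element (TGACGTCA) and the kappaB decamer. The AP-1 motif was found before this 1 start site, as TGAGTCA, and 6.75% of 32851 windows of the same length held it. Neither the cyclic AMP element (1.55% of windows) nor the kappaB decamer (7.25%) was found in the 8 windows. A shorter kappaB-like word, GGAAATTCC, was searched for after the windows had been looked at, and it was found before the start of Icam1 alone and in 0.286% of windows. The Icam1 window (plus strand, this word in capitals) is given beside that of Il11, as a mediator that was not called. The matches are descriptions of the sequence.
Il11, chr7:4778142-4778391: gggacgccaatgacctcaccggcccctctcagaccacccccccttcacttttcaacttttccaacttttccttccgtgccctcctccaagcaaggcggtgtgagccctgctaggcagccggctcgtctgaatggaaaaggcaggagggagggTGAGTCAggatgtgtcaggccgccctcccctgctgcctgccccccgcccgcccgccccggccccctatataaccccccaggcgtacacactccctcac
Icam1, chr9:21015690-21015939: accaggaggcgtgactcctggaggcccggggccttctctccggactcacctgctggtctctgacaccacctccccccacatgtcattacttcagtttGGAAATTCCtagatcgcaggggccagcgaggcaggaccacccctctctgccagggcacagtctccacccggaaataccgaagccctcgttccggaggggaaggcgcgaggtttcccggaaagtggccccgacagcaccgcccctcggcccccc

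Il11 read 9.42, 8.37, 9.21 and 9.08 in primary tumours and 6.31, 7.11, 8.06 and 7.69 in metastases. Every metastasis lay below every primary tumour, the lowest was that of mouse 1, and unlike Vcam1 and Ptgs2 the metastasis of mouse 2 was not the highest. The fold was -1.73 with an SE of 0.39 (limma adjusted p = 0.0165), a 3.31-fold fall from 9.02 ± 0.46 to 7.29 ± 0.76 (SD, n = 4 each). It was -1.62 without metastasis arrays 1 and 3, still called lower. The call was lost after quantile normalization (-1.36, adjusted p = 0.0811) and, narrowly, without primary replicate 3 or 4 (limma adjusted p = 0.0529 and 0.0518). Il6st, the signalling chain shared by receptors of this cytokine family, had no call on 4 probe sets, with folds from -0.60 to 0.92. Its brightest probe set (0.92, limma adjusted p = 0.0769) was called higher with the mouse as a block (adjusted p = 0.0327), after quantile normalization (1.24, adjusted p = 0.0375) and after scaling to the 75th percentile (1.12, adjusted p = 0.0333), but had a fold of 0.47 (adjusted p = 0.217) without metastasis arrays 1 and 3.

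Jag1 is a Notch ligand through which tumour cells can act on osteoblasts and osteoclast precursors. Its 3 probe sets disagreed. Probe set 1434070_at, the brightest, read 8.23, 9.46, 8.85 and 8.77 in primary tumours and 6.50, 8.98, 7.38 and 5.33 in metastases. It was lower in bone in all 4 mice, but the metastasis of mouse 2 lay within the range of the primary tumours, and the fold of -1.78 (SE 0.69) was not called (limma adjusted p = 0.103). Without metastasis replicate 2 it was -2.43 and was called (limma adjusted p = 0.0111), and without metastasis replicate 4 it was -1.21 (adjusted p = 0.185).

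Probe set 1421106_at of Jag1 read 5.34, 6.56, 5.91 and 5.83 in primary tumours and 4.83, 4.79, 4.97 and 4.99 in metastases. Its fold of -1.02 (SE 0.24, limma adjusted p = 0.0192) was called, but the metastasis mean of 4.89 lay under the mean array median of 5.31, so the size is not exact. The call was lost with the arrays scaled to a common 75th percentile (-0.81, adjusted p = 0.0594), without metastasis arrays 1 and 3 (adjusted p = 0.0822) and without primary replicate 3 or 4 (limma adjusted p = 0.0563 and 0.0532). Probe set 1421105_at read between 4.18 and 4.88 on all arrays, below the array medians, with a fold of 0.07 as deposited and of -0.10 after quantile normalization.

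Notch pathway genes downstream of the ligand did not move one way. Notch1 and Notch2, the receptors measured on 2 probe sets each, had no call, with folds from -0.51 to 0.60. Notch3, a receptor of mural cells and some tumours, was called higher on 1 of 2 probe sets (0.99, SE 0.23), and Heyl, a target of it, on 1 of 3 (0.96, SE 0.17). The called probe set of Heyl read 4.93 to 5.16 in primary tumours, under the mean array median there (5.17), so its size is not exact. The Notch targets Hes1 and Hey1 had folds of -0.89 (adjusted p = 0.143) and 0.42 (adjusted p = 0.375).

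Tnc encodes tenascin C, a matrix glycoprotein of tumour stroma and of stem cell niches. Its probe set 1416342_at read 7.34, 6.67, 5.996 and 6.59 in primary tumours and 5.34, 5.83, 5.06 and 6.32 in metastases. The value was lower in bone in all 4 mice, with differences from -1.996 in mouse 1 to -0.27 in mouse 4, but the groups overlapped. The fold was -1.01 with a 95% interval from -1.79 to -0.23 (limma adjusted p = 0.0708). Without metastasis replicate 4 it was -1.24 and was called (limma adjusted p = 0.0382), and without metastasis arrays 1 and 3 it was -0.58 (adjusted p = 0.301). Probe set 1456344_at read 3.24 to 3.47 on every array, under the array medians, where no fold can be read.

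Among the integrin chains that bind tenascin C, Itga9 was called lower on 2 of 3 probe sets, with folds of -2.80 (SE 0.47) and -2.32 (SE 0.32). Itgav was called lower on 1 of 5 (-2.56, SE 0.29) and had a fold of -0.58 (adjusted p = 0.129) on its brightest probe set. Itgb3, which forms the vitronectin receptor of osteoclasts and platelets with Itgav, was called higher on both probe sets, by 1.44 (SE 0.39) and 0.64 (SE 0.15). Neither call of Itgb3 held without metastasis arrays 1 and 3 (1.04 and 0.55, limma adjusted p = 0.113 and 0.0687).

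Edn1 encodes the precursor of endothelin 1, a peptide that constricts vessels and stimulates osteoblasts, and is made mainly by endothelium and some carcinomas. It read 7.60, 7.78, 7.23 and 8.10 in primary tumours and 6.47, 6.40, 7.22 and 7.37 in metastases. The difference was -1.13, -1.38 and -0.73 in mice 1, 2 and 4 and near 0 in mouse 3 (-0.00342), and the groups overlapped. The fold was -0.81 with a 95% interval from -1.45 to -0.17 and was not called (limma adjusted p = 0.0745). Without metastasis replicate 4 it was -0.98 and was called (limma adjusted p = 0.0458), without metastasis replicate 2 it was -0.66, and after quantile normalization it was -0.52 (adjusted p = 0.351). The mean level of 10 endothelial markers ran from 5.55 to 6.27 on primary arrays and from 6.19 to 6.52 on metastasis arrays. Ece1, the enzyme that cuts the precursor to the active peptide, and the receptor Ednrb were each called lower on 1 of 3 probe sets, with folds of -0.97 (SE 0.30) and -1.54 (SE 0.29). Neither call was on the brightest probe set, where the folds were -0.50 and -0.73, and neither held without metastasis arrays 1 and 3 (limma adjusted p = 0.137 and 0.0559).

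**Figure D3:**
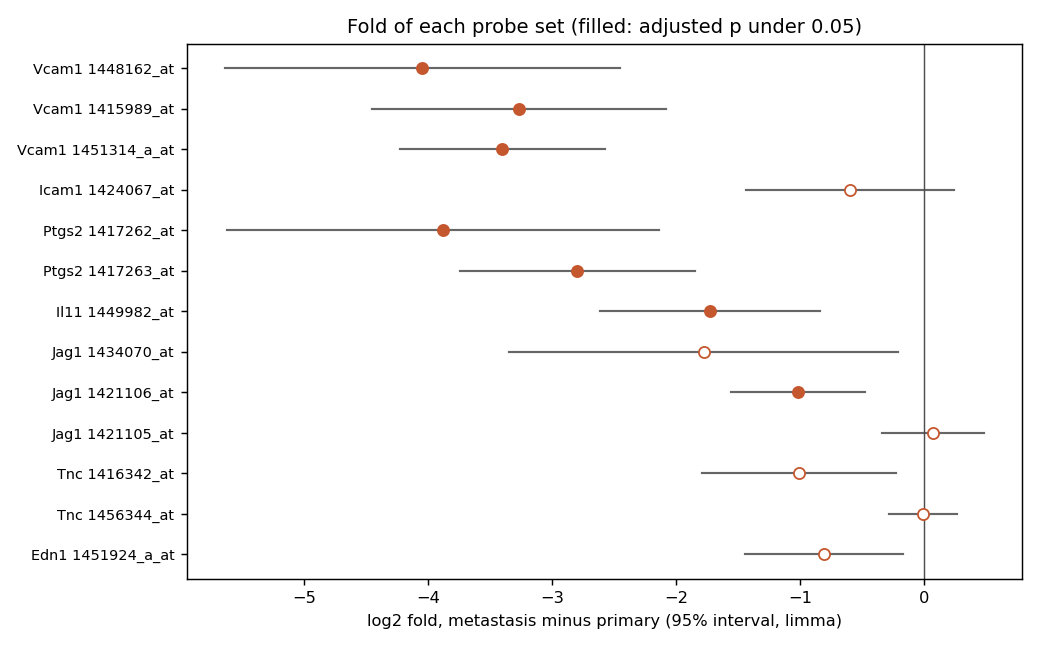
Log2 fold, metastasis minus primary (x axis), of each of the 13 probe sets with its 95% interval from limma. Filled points had an adjusted p under 0.05. Vcam1 lies at -4.05, -3.27 and -3.40 and Ptgs2 at -3.88 and -2.80, whereas the interval of Icam1 runs from -1.44 to 0.24.

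The mediators differed in which mouse held the highest level in bone. Among the 4 metastases, that of mouse 2 was the highest on all 3 probe sets of Vcam1, on both of Ptgs2, on Icam1 and on 1434070_at of Jag1. That of mouse 4 was the highest on Tnc (1416342_at) and on Edn1, and that of mouse 3 on Il11. On 1421106_at of Jag1, the one called, the metastasis of mouse 2 was the lowest (4.79, beside 4.83 to 4.99). Its lead over that of mouse 4 was small on 1451314_a_at (6.34 and 6.29) and 1415989_at (6.95 and 6.85) of Vcam1. The metastasis of mouse 2 also had the highest macrophage markers and the smallest actin drop of the metastases, and their part was not tested. For each gene the closest profile over the 8 arrays, by the root mean square (RMS) difference of the log2 values after centring each gene on its own mean, was sought among the brightest probe sets of 18192 other genes. The closest to Vcam1 was Ifi202b, an interferon-inducible gene, at an RMS difference of 0.29. The median over all genes was 2.32, and the smallest of so many differences lies under the median for any gene. The profiles keep the difference between the groups, so genes with like folds lie close. The folds of Vcam1 and Ifi202b were -4.05 and -3.83. The closest to Ptgs2 was Il10, an anti-inflammatory cytokine, at 0.28, and the closest to Jag1 was Tnfrsf1b, a receptor of tumour necrosis factor, at 0.19. Trem3 was the closest to Icam1 (0.13), Fah to Il11 (0.18), Trps1 to Tnc (0.27) and Gipc2 to Edn1 (0.17). Between the mediators themselves the closest pair was Vcam1 and Ptgs2, at 0.45, whose folds were the like values of -4.05 and -3.88. The next was Tnc and Edn1, at 0.54.

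Receptors and partners of the mediators, 26 measured genes with 62 probe sets, had 15 probe sets called lower and 6 higher, with a median fold of -0.11. Genes with a call one way on all of their probe sets were Itgam, Ptges and Ptger2 (lower) and Itgb3 (higher). A further list of 24 measured genes of bone colonization, with 47 probe sets, had 10 called lower and 5 higher, with a median fold of -0.16. The lower share of 15 in 62 and 10 in 47 stands beside 11.9% over all probe sets, and the higher share of 6 in 62 and 5 in 47 beside 8.72%. Both lists were also chosen with earlier results of these data known. Without metastasis arrays 1 and 3 the counts were 6 lower and 5 higher of 62, and 7 lower and 2 higher of 47, beside 8.06% and 6.69% of all probe sets. After scaling to the 75th percentile they were 11 lower and 8 higher, and 8 lower and 7 higher, beside 10.2% and 12.7% of all, and both medians turned positive (0.09 and 0.04), while that of all probe sets moved from 0.09 to 0.29.

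Some osteolytic and inflammatory factors were among the 6 genes of the second list that were called lower on every probe set. Of its 24 genes, 12 had no call, and Il6, Mmp9, Tgfb1 and Cxcl2 were among these. Mmp13, a collagenase, had a fold of -4.71 (SE 0.87), the monocyte attractant Ccl2 of -3.73 (SE 0.40), and the inflammatory cytokines Il1b and Tnf of -2.90 (SE 0.64) and -2.80 (SE 0.43). The folds of Vegfa, the main endothelial growth factor, were -3.05 (SE 0.53) and -2.22 (SE 0.34), and that of Csf2, a myeloid growth factor, was -0.98 (SE 0.29, limma adjusted p = 0.0427). The macrophage and monocyte markers, 8 of 10 called lower, were also lower on all metastasis arrays, and their part in these falls was not tested. Cxcr4, the receptor through which leukocytes and tumour cells follow Cxcl12 to the marrow, rose by 1.41 (SE 0.20), and Selp, the adhesion molecule P-selectin of platelets and endothelium, rose on all 3 probe sets by 2.33 (SE 0.46), 3.70 (SE 0.82) and 2.51 (SE 0.59). Cxcr4 and Selp are also genes of leukocytes and of platelets or endothelium, and the neutrophil and B lineage markers given above were higher on all metastasis arrays; their part in these rises was not tested. Without metastasis arrays 1 and 3 the calls of Il1b (-2.36, limma adjusted p = 0.0905), of Csf2 (adjusted p = 0.170) and of 2 of the 3 probe sets of Selp (2.11 and 2.99, adjusted p = 0.0527 and 0.0745) were lost, and that of Csf2 was lost after either rescaling too. Tnfsf11, the osteoclast factor RANKL, which lies downstream of several of the mediators, had folds of 1.61 (SE 0.81, limma adjusted p = 0.194) and 0.35 and was not called. Its brightest probe set read 8.44 in the metastasis of mouse 1 and 4.10 to 5.24 in the other metastases.

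**Figure D4:**
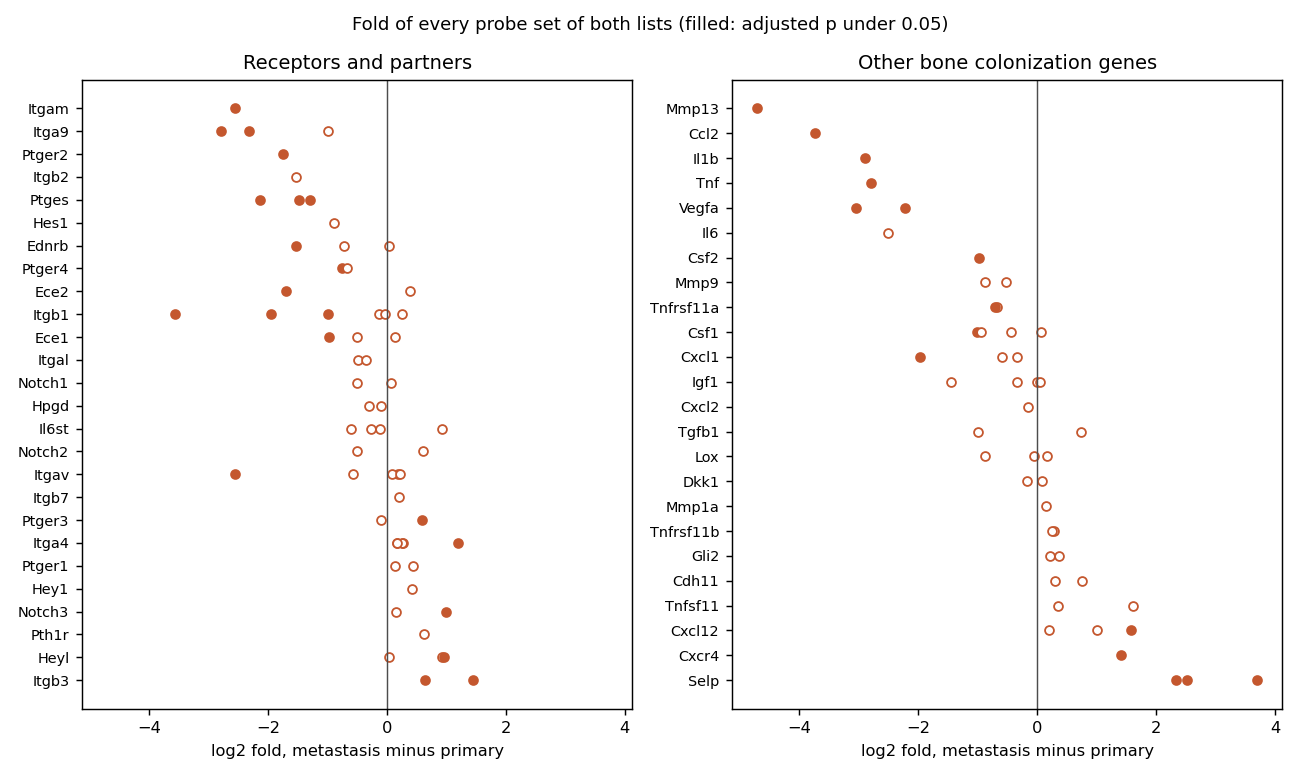
Log2 fold, metastasis minus primary (x axis), of every probe set of the receptors and partners of the mediators (left) and of other bone colonization genes (right), 1 row per gene. Filled points had an adjusted p under 0.05: Ptges, Ptger2 and Itgam lie below 0 and Itgb3 above it on the left, and Mmp13, Ccl2, Il1b, Tnf, Vegfa and Csf2 lie below 0 and Cxcr4 and Selp above it on the right.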

How the data were processed

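The authors deposited log2 signals, and the submitters' processing notes name RMA. The RMA version and which arrays were normalized together are not given in the sources used here. Total RNA was amplified in 2 cycles and labelled with biotin, per the labels' protocols. The number of arrays limits the precision (median SE of a fold 0.21 over all probe sets). Array medians ran from 5.16 to 5.17 in primary tumours and from 5.23 to 5.42 in metastases.

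Of 45101 probe sets, 34945 with 1 gene symbol were tested, 932 with several symbols, 9160 with none listed and 64 controls were not. The identifiers of 34741 were found in the GRCm38.p6 gene table, which updated 0 symbols. Groups were compared with limma 3.58.1 (lmFit and eBayes, R 4.3.3), two-sided, without a block, and adjusted over all probe sets. The test was checked on simulated data with independent values and the same spread in both groups. Unequal spreads such as those of Ptgs2 1417262_at (SD 0.23 and 1.79) were not covered by that check. Both tumours of a number came from 1 mouse, and the deviations of the pairs from their group means correlated at 0.16, 0.00, 0.03 and -0.10 across probe sets. Alternatives were a mouse block, other scalings, a filter on dim probe sets, 1 probe set per gene, the actin drop as covariate, trended and robust variances, and left-out arrays. The genes named were all probe sets of the members, the listed pathway genes called one way on all of their probe sets (at most 6 in each direction) and the gene closest to each member; further pathway genes were chosen after their values were seen. The members and lists were chosen with earlier results of these data known. Summaries were made in Python 3.11.15 (pandas 2.3.3, numpy 2.4.6); promoter sequences came from RefSeq (GRCm38.p6).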

Additional observations from a re-analysis of the deposited data

Results flagged for a closer look

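In 4 of the 26 groups of 4 arrays examined, 1 array stood apart from the other three by a gap whose share of the group's range exceeded Dixon's 95% critical value for 4 samples; chance flags about 1 in 20 groups. The primary tumour of mouse 1 was low on Vcam1 1448162_at (12.11) and 1451314_a_at (8.43). The metastasis of mouse 1 was low on Vcam1 1415989_at (5.69), and that of mouse 4 was high on Jag1 1421105_at (4.88), a dim probe set.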

How the results depend on the processing

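Of the 13 mediator probe sets, those called lower numbered 7 with the mouse as a replicate block, with trended and robust variances and with the filter on dim probe sets (11 of the 13 tested), 6 after quantile normalization and after scaling to the 75th percentile, and 5 without metastasis arrays 1 and 3. The block changed no call among the 13. Of the pathway genes it lost calls of Ptges, Ptger3 and Itgb1 and gained calls of Il6st and Itgb2, given with them, and of Csf1 1448914_a_at (-0.95, adjusted p = 0.0285) and Igf1 1434413_at (-1.45, adjusted p = 0.0292). Leaving out 1 array at a time gave 5 to 9 lower, and 0 were higher under every alternative, also at an unadjusted p under 0.05. With 1 probe set per gene 3 were lower, since 7 were tested. With the actin drop as a covariate 0 were lower by limma (2 at an unadjusted p under 0.05). With mice 2 and 4 alone, chosen after seeing the data, 0 were lower (6 at an unadjusted p under 0.05) and 21 probe sets were called in all. Over all probe sets 7214 were called, and 3803 to 8439 with 1 array left out. Without primary replicates 2, 3 and 4 they numbered 4599, 4040 and 3803.

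Folds turned sign with the actin covariate for Icam1 (1.33), Jag1 1421105_at (-0.92), Jag1 1434070_at (2.53) and Ptgs2 1417262_at (1.86). The drop did not overlap between the groups, and as a covariate it took the median SE from 0.21 to 0.70. The cause of these changes was not tested. Of the dim probe sets, Jag1 1421105_at was at -0.10 after quantile normalization and ran from -0.086 to 0.15 with 1 array left out, and Tnc 1456344_at was at 0.19 after scaling to the 75th percentile, at 0.040 with mice 2 and 4 alone, and ran from -0.058 to 0.020 with 1 array left out. That scaling moved the median fold of all probe sets from 0.09 to 0.29, and the share of lower calls from 57.8% to 44.5%. Probe sets under the array median have too little signal for exact folds.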
